A study of Arabidopsis thaliana with 27 samples.

Results

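The genes described here are those of *Arabidopsis thaliana* stamens whose transcript level was at least 2-fold lower 22 h after jasmonate treatment than both in untreated stamens and 22 h after 12-oxophytodienoic acid (OPDA). They number 257 of the 22810 probe sets on the ATH1 array, a 1-colour array with a set of short probes for each transcript. The arrays of 4 groups taken 0.5, 2, 8 and 22 h after JA and 4 groups taken at the same times after OPDA were described beside untreated *opr3* stamens and untreated stamens of the wild-type strain Ws. All groups but Ws carried the *opr3* mutation, so no wild-type stamens were treated. Flower buds at stage 12 were treated on plants grown on soil in continuous light, both compounds were given at 0.03%, and stamens were taken from the buds. The groups titled JA received methyl jasmonate, the methyl ester of jasmonic acid, according to the treatment protocols, and they are called JA here as in the titles. Each group held 3 arrays, except that JA at 0.5 h had 2 distinct arrays, OPDA at 8 h had 2 and Ws had 1. Nothing states that the arrays of a group came from separate plants, so the tests measure the spread between these samples. No stamens treated with solvent alone were analysed here, so time since treatment and handling cannot be told apart from JA in a comparison of JA arrays of different times. One of the arrays of JA at 2 h is titled *opr2* and was kept in its group.

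Jasmonic acid is a lipid hormone made from linolenic acid, with OPDA as an intermediate. The reductase OPR3 acts on OPDA inside peroxisomes, and *opr3* mutants therefore make little jasmonate and are male sterile: filaments stay short, anthers do not open on time and pollen is not viable. Jasmonate given to buds at the right stage restores fertility. OPDA is the compound on which the missing enzyme acts. Late stamen development also brings the breakdown of the tapetum, the nurse layer of the anther, the drying of the anther wall and pollen, and the use of stored sugars and starch.

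The members were chosen on log2(signal + 16) averaged within each group. A probe set had to lie at least 1 unit lower at 22 h after JA than in untreated stamens, and at least 1 lower than at 22 h after OPDA. It also had to lie less than 0.6 above OPDA at 8 h, to rise by less than 1 at 2 h after JA, and to have a mean signal of at least 100 in untreated *opr3*. Of all probe sets, 809 met the first condition, 309 the first and second, 307 also the limit at 8 h, 303 the limit at 2 h and 263 the signal minimum. Then 6 were left out by symbol, namely ALDH11A3, AtVEX1, LEA, LEA18, LTI30 and UGT84A3. The measures at 22 h therefore describe the choice and are given with no test. Of the 257 members, 119 are paired with 1 gene by the platform table, 3 with several and 135 with none, and 28 carry a gene symbol other than a locus name. All 257 passed the filter for testing (2 or more arrays with a signal of 50 or more), as did 14028 probe sets in all.

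At the edges of the rule, CYP71B6 lay just inside the fall after JA at -1.01 and the manganese carrier gene MTP11 just outside it at -0.99. The first gene outside the gap to OPDA, AT1G32250, lay at -0.998, and the last probe set inside lay at -1.003. The limit at 2 h had PAP20 as the highest gene inside at 0.77 and AT5G59080 as the first outside at 1.11. WRKY42 was the dimmest member, with an untreated mean signal of 100.3. With all other conditions met, 70 probe sets missed only the fall, 341 only the gap to OPDA, 1 only the limit at 8 h, 4 only the limit at 2 h and 40 only the signal minimum.

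The median level of the members was close to the untreated one up to 2 h after JA and lower at 8 and 22 h. The median signal over the 257 members was 421, 395 and 366 on the untreated arrays, 384 and 398 at 0.5 h after JA, 371, 376 and 380 at 2 h, 216, 185 and 206 at 8 h, and 109, 82.5 and 120.4 at 22 h. After OPDA it was 390.3, 409 and 409.7 at 0.5 h, 398, 351 and 418 at 2 h, 400.4 and 399.9 at 8 h, and 336, 277 and 297 at 22 h. The Ws array had a median of 216.2. Arrays of JA at 8 h thus lay below all arrays of OPDA, and arrays of JA at 22 h lay lowest of all.

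**Figure D1:**
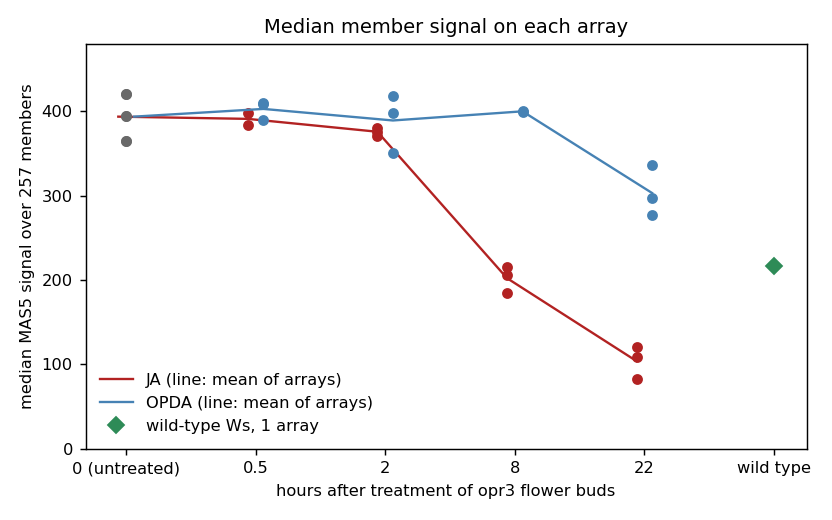
Median MAS5 signal over the 257 members on each array (linear axis), with hours after treatment in equal steps; points are arrays, lines join group means and the diamond is the single Ws array. The JA arrays leave the OPDA arrays at 8 h, with 216, 185 and 206 against 400.4 and 399.9, and the Ws array lies at 216.2.

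The median log2 difference between JA at 22 h and untreated stamens was -1.61 over the members, with a lowest value of -4.05, against a median of -0.21 over all tested probe sets. This range was set by the rule, and 5.51% of tested probe sets were at least 2-fold lower in that comparison. The difference between JA and OPDA at 22 h had a median of -1.34 over the members, where 3.05% of tested probe sets were at least 2-fold lower. The 3 JA arrays at 22 h lay below all untreated arrays in 257 members, as did 33.4% of tested probe sets, and below all OPDA arrays at 22 h in 254 members, as did 20.5%. Both counts follow from the rule. The deepest fall belonged to the array of replicate 2, with a median of -1.94 from the untreated mean, against -1.50 and -1.51 for the other two. Without that array 185 probe sets met the rule, and without replicate 3 of the same group 318 did. Within the scan days shared by JA at 22 h and untreated arrays the member medians were -1.93 and -1.44, and within the 3 days shared with OPDA at 22 h they were -1.39, -1.62 and -1.12.

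Markers of other cells moved in the same groups. They were found by gene symbol only, so a marker carried under its locus name, member or not, would be missed. ATA27 was the only one found in this way of the 9 tapetum markers searched, and the planned tapetum list held further names. Its signals were 0.8 to 11.5 at 22 h after JA, against 7.1 to 35.6 at 22 h after OPDA, 149.9 to 655.2 in untreated stamens and 833.8 in Ws. The summed signal of 12 of 15 pollen markers was 8581 to 14307 at 22 h after JA, against 8260.4 to 13453 at 22 h after OPDA, 4820.0 to 6069.5 in untreated stamens and 9323 in Ws. Within this sum AtVEX1, the brightest of the 12 in untreated stamens and one of the probe sets left out of the members by symbol, went the other way, with a mean of 933 at 22 h after JA, against 2833 at 22 h after OPDA, 2300.4 in untreated stamens and 1862 in Ws. ADPG1, a pectin-degrading enzyme of anther opening and the only one of 5 dehiscence markers named, had 1299 to 1816 at 22 h after JA, against 344 to 457 at 22 h after OPDA, 98.7 to 224 in untreated stamens and 845 in Ws. The sum of 3 of 8 green-tissue markers (RCA, LHCB4.3 and LHCB4.2) was 1045 to 1153 at 22 h after JA, against 1848 to 2018 at 22 h after OPDA, 1816 to 2043 in untreated stamens and 1529.7 in Ws. The sum of 2 of 7 carpel and ovule markers (SPT and INO) was 83.3 to 127.7 at 22 h after JA, against 120.1 to 186.7 at 22 h after OPDA, 159.5 to 176.2 in untreated stamens and 138.8 in Ws, and SPT alone averaged 63.6, 122, 117 and 73.6 in these groups. In whole stamens, fewer cells of a type and less RNA per cell cannot be told apart, and the part of these markers in the members' levels was not tested. No organ-identity marker is named on the array here, so the labelled tissue was not checked by one.

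The comparison of JA at 8 h with JA at 0.5 h used arrays that the fall at 22 h did not, and it asked how early the decline was measurable. The rule touched JA at 8 h only through its upper limit against OPDA, which removed 2 probe sets. Of the 257 members, 117 were lower and 0 higher at an adjusted p under 0.05 in limma, which is 45.5% of members, where 4.38% of tested probe sets were lower and 3.77% higher. The median log2 change was -0.71 over the members and -0.09 over all tested probe sets, and 227 members lay below 0 (61.2% of tested probe sets did). In 190 members every array at 8 h lay below both arrays at 0.5 h, against 25.1% of tested probe sets. With probe sets of an untreated mean of at least 100 as the background, 5.76% were lower. The count was 68 without replicate 3 of JA at 0.5 h, 69 without replicate 1 of that group, and 74 when only the compared groups were fitted. Both groups shared 1 scan day, with 1 array each. Within that day the member median was -0.69, against -0.06 over all tested probe sets, and 237 members lay below 0.

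**Figure D2:**
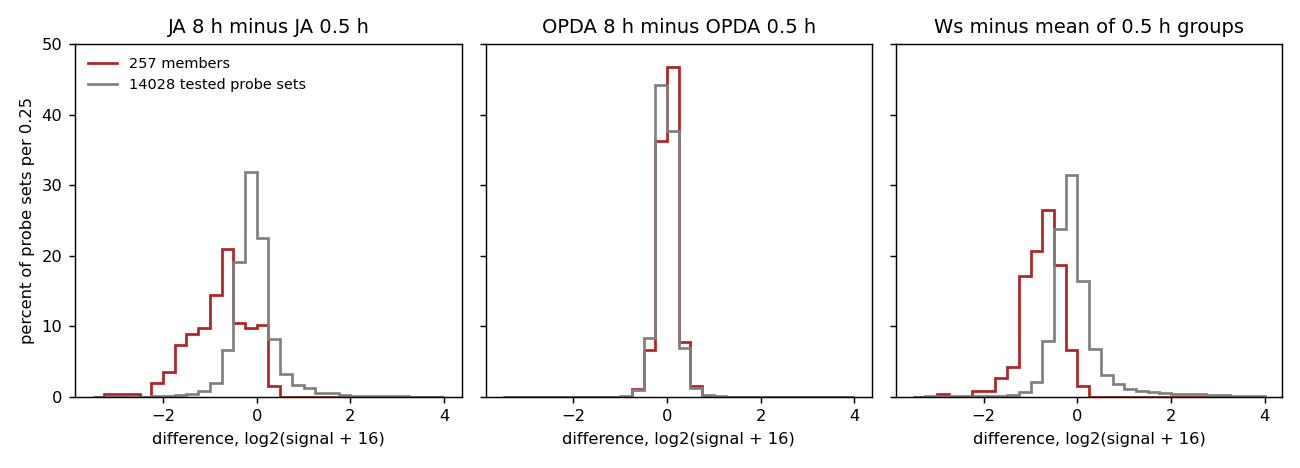
Share of probe sets in bins of 0.25 for the log2 difference between JA at 8 h and 0.5 h (left), OPDA at 8 h and 0.5 h (middle) and Ws and the mean of the 0.5 h groups (right), for the 257 members (red) and the 14028 tested probe sets (grey). Member medians were -0.71 and 0.02 in the first and second panels and -0.73 in the third.

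The same interval after OPDA gave no calls. Between OPDA at 8 h and 0.5 h, 0 of the 257 members were called by limma in either direction, as were 0% of all tested probe sets. At an unadjusted p under 0.05, 2 members were lower and 3 higher, against 180 and 207 of the 14028 tested probe sets. The member median was 0.02, with a range of -0.66 to 0.75. The change after JA minus the change after OPDA, a comparison added after the data were seen, was called negative in 47 members and positive in 0, against 0.663% and 1.14% of tested probe sets. This difference contains JA minus OPDA at 8 h, for which the rule had set that upper limit. The median difference was -0.80, and all 47 were among the 117 lower at 8 h. The 47 became 18 without replicate 1 of OPDA at 8 h, 19 and 24 without replicates 3 and 1 of JA at 0.5 h, 26 without replicate 3 of OPDA at 8 h and 30 without replicate 2 of JA at 8 h.

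Genes of cold and drying tolerance stood among the members with an early decline, a low level in Ws and a level after OPDA close to the untreated one. COR15A and its neighbour COR15B encode small chloroplast proteins that protect membranes when cells freeze or dry. COR15A had signals of 1528, 912 and 1372 at 22 h after JA, against 6402, 5526 and 3615 at 22 h after OPDA and 4898, 6482 and 4676 in untreated stamens. At 8 h after JA its signals were 2085, 1856 and 1722, against 5534 and 5099 at 0.5 h, a log2 change of -1.49 (95% interval -1.99 to -0.99, limma adjusted p = 0.00027). The 2 groups did not overlap, and Ws, at 1909, lay among the arrays of JA at 8 h. COR15B had 869, 566 and 741 at 8 h after JA, against 1680.1 and 1716 at 0.5 h, a log2 change of -1.23 (95% interval -1.74 to -0.72, limma adjusted p = 0.0023). Its 3 arrays at 8 h were again all below those at 0.5 h. The pair lie next to each other on the chromosome. Of the 4 tested genes of the list of abscisic acid and dehydration response, these 2 were lower at 8 h and 0 higher, with a list median of -0.78.

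TIL, a temperature-induced lipocalin bound to membranes, had 344, 255 and 298 at 22 h after JA, against 1204, 1289.8 and 984 at 22 h after OPDA and 921, 1207 and 1040.0 in untreated stamens. The OPDA arrays at 22 h overlapped the untreated ones, and the JA arrays lay below both. At 8 h after JA its level was 522 ± 85.3 (SD, n = 3), against 1013 ± 163 at 0.5 h (SD, n = 2). The log2 change was -0.94 (limma adjusted p = 0.0053). That call was lost without replicate 3 of JA at 0.5 h. AILP1, whose symbol stands for a protein like those induced by aluminium, had 518, 459.9 and 627 at 8 h after JA, against 1398 and 1536 at 0.5 h, a log2 change of -1.44 (95% interval -1.87 to -1.01, limma adjusted p = 7.2e-05). HIS1-3, a linker histone variant known from drought-stressed plants, had 38.5, 52 and 49 at 8 h after JA, against 134 and 117 at 0.5 h, a log2 change of -1.19 (95% interval -1.61 to -0.77, limma adjusted p = 0.00048). For AILP1 and HIS1-3 the arrays of the 2 times did not overlap. HIS1-3 was dim in Ws, at 21.6, within the range of 27.3, 25 and 19.9 seen at 22 h after JA.

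**Figure D3:**
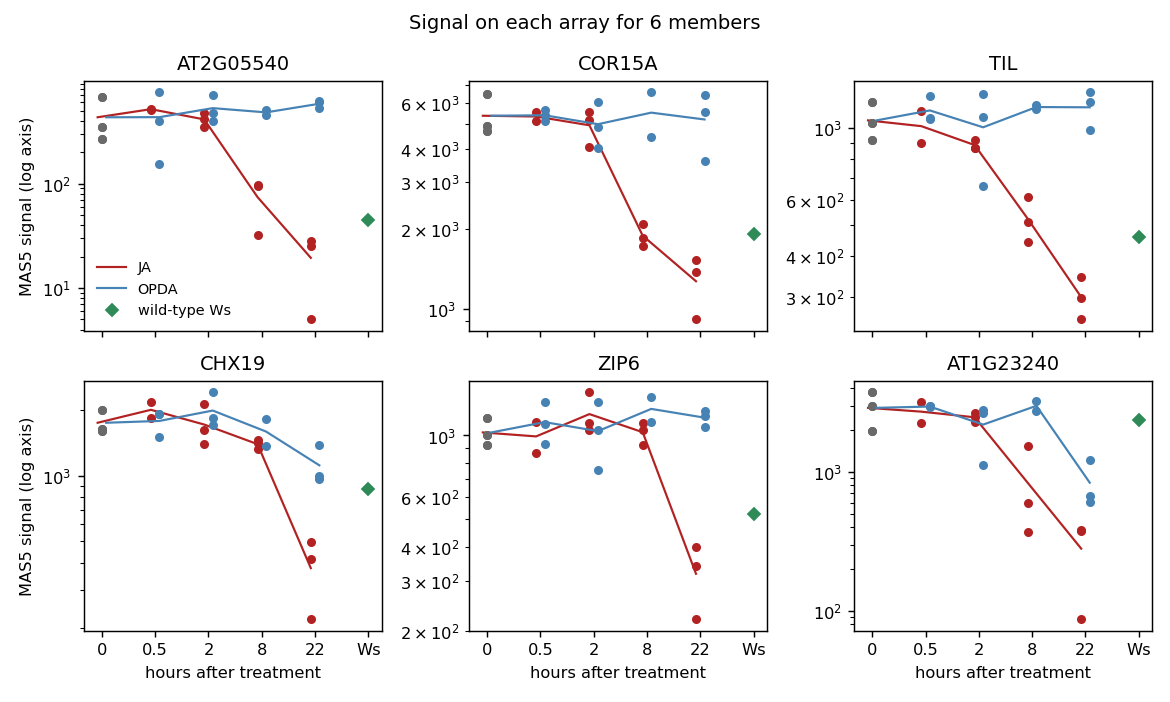
MAS5 signal of 6 members on each array (log axis) against hours after treatment in equal steps; points are arrays (grey for untreated), lines join group means and the diamond is the single Ws array. AT2G05540, COR15A and TIL are low at 8 h after JA, CHX19 and ZIP6 are lowest at 22 h after JA, and AT1G23240 is low at 22 h after OPDA too while Ws reads 2353.

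AT2G05540, a locus with no symbol in the tables used, had the widest gap between the compounds at 22 h, a log2 difference of -4.15. Its signals were 25.2, 28.1 and 5 at 22 h after JA, against 532, 599.8 and 612 at 22 h after OPDA and 349, 270.1 and 676 in untreated stamens. At 8 h after JA they were 32.4, 94 and 96.3, against 523 and 509 at 0.5 h, a log2 change of -2.66 (95% interval -3.62 to -1.69, limma adjusted p = 0.00061). The arrays of the 2 times did not overlap, though one array of OPDA at 0.5 h was also low, at 155 beside 747 and 395. AT1G11210 fell further by 8 h, to 4.4, 3.7 and 6.9, against 124 and 142 at 0.5 h, a log2 change of -2.82 (95% interval -3.58 to -2.07, limma adjusted p = 1.6e-05). AT1G68500 had 72, 49 and 40.6 at 8 h after JA, against 309.5 and 301 at 0.5 h, a log2 change of -2.23 (limma adjusted p = 5.6e-08). Both loci were at a level at 8 h close to that at 22 h after JA, where AT1G11210 had 6.3, 2.8 and 7.9 and AT1G68500 had 38.9, 41.9 and 37.5. The largest change at 8 h was that of a probe set with no gene pairing here, which had 208, 148 and 153 at 8 h after JA, against 1634 and 1650.5 at 0.5 h, a log2 change of -3.17 (limma adjusted p = 1.9e-07). AT1G09310 and AT1G80130 were likewise lower at 8 h, with log2 changes of -1.54 (limma adjusted p = 0.0012) and -1.71 (limma adjusted p = 2.3e-06).

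Sugar and starch genes followed different courses. TMT2 encodes a carrier that loads monosaccharides into the vacuole. Its signals were 104, 96.4 and 108 at 8 h after JA, against 260.4 and 306 at 0.5 h, a log2 change of -1.33 (95% interval -1.68 to -0.98, limma adjusted p = 1.5e-05). The arrays of the 2 times did not overlap, and those of JA at 22 h, with 134, 75.5 and 111, overlapped those at 8 h. APL4, a large subunit of the enzyme that makes ADP-glucose for starch, had 211, 145 and 144 at 8 h after JA, against 404 and 491 at 0.5 h, a log2 change of -1.35 (limma adjusted p = 0.0019). SAG29 (SWEET15) and SWEET3 belong to the SWEET family of sugar efflux carriers. SAG29 averaged 51 ± 32.9 at 8 h after JA (SD, n = 3), against 97.2 ± 5.59 at 0.5 h (SD, n = 2), and the log2 difference was -0.86 (limma adjusted p = 0.17). Its arrays did not overlap. For SWEET3 the log2 difference at 8 h was -0.38 with a 95% interval of -0.95 to 0.19, and its low values came at 22 h, at 424, 185 and 263, against 769, 638 and 499.6 after OPDA. Among the 19 tested sugar carriers of the list, 2 were lower at 8 h (SWEET11, not a member, and TMT2) and 0 higher, with a list median of -0.14.

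Members of chloroplast and peroxisome metabolism include HPR, the hydroxypyruvate reductase of photorespiration, and PIFI, a chloroplast protein linked to electron flow around photosystem I. HPR had 215, 289.9 and 370.0 at 8 h after JA, against 599 and 533 at 0.5 h, a log2 change of -0.95 (95% interval -1.32 to -0.58, limma adjusted p = 0.0013). PIFI had 62.6, 84.5 and 90.1 at 8 h after JA, against 177 and 133 at 0.5 h, a log2 change of -0.85 (limma adjusted p = 0.0095) that was not called without replicate 1 of JA at 0.5 h. HPR had 529, 497 and 589 at 22 h after OPDA, against 463, 467 and 622 in untreated stamens, and these groups overlapped for both genes. Of the 10 tested photosynthesis genes of the list, 3 were lower at 8 h (HPR, PIFI and LHCB4.3) and 0 higher, with a median of -0.22. The summed green-tissue markers were 1298 to 1975 at 8 h after JA, against 1994 to 2029 at 0.5 h after JA and 1816 to 2043 in untreated stamens. The part of green tissue in these falls was not tested. AOR, which reduces reactive carbonyls in chloroplasts, had a log2 difference of -0.44 between 8 h and 0.5 h after JA with a 95% interval of -0.87 to -0.01 (limma adjusted p = 0.21). SDRB (DECR), a peroxisomal reductase of fatty acid breakdown, had a difference of 0.10 at 8 h (limma adjusted p = 0.86). At 22 h SDRB had 392, 203 and 466 after JA, against 619, 643 and 822 after OPDA and 682, 908 and 795 in untreated stamens. MCCA, a subunit of the mitochondrial carboxylase of leucine breakdown, had a difference of -0.26 at 8 h (limma adjusted p = 0.40).

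The members that carry ions and nutrients had their lowest level at 22 h after JA, and none of the 3 was called at 8 h. CHX19, a cation and proton exchanger, had 413, 219 and 499 at 22 h after JA, against 1385, 965 and 998 at 22 h after OPDA and 2005, 1606 and 1635 in untreated stamens. The JA arrays lay below both other groups, and the OPDA arrays lay below the untreated ones. At 8 h after JA it had 1455, 1412 and 1321, against 2166 and 1844 at 0.5 h, a log2 difference of -0.51 (95% interval -1.04 to 0.01, limma adjusted p = 0.24). Its arrays at 8 h all lay below those at 0.5 h and the untreated ones. ZIP6, of the ZIP family of zinc and iron carriers, had 1046, 925 and 1111 at 8 h after JA, against 864 and 1119.9 at 0.5 h, a log2 difference of 0.06 (95% interval -0.42 to 0.53, limma adjusted p = 0.91). At 22 h it had 341, 219 and 398 after JA, against 1226, 1071 and 1178 after OPDA and 925, 999.7 and 1152 in untreated stamens. AT3G21670 (NPF6.4), of the nitrate and peptide carrier family, had a log2 difference of 0.01 at 8 h with a 95% interval of -0.52 to 0.54. Its level at 22 h was 636 ± 188 after JA, against 2304 ± 273 after OPDA (SD, n = 3 each). Of the 13 tested nutrient and water carriers of the list, 1 was lower at 8 h (AT1G59740) and 1 higher (GTR2), and neither is a member.

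Other named members with no call at 8 h were PAP20, a purple acid phosphatase, BGLU15, a beta-glucosidase, WRKY42, a transcription factor, and CYP71B6, a cytochrome P450. Among those without a symbol were AT4G30490 and AT5G14940. PAP20 was high at 2 h after JA, with 962, 990.4 and 1152, against 654, 486 and 740.4 at 2 h after OPDA, and had 298, 154 and 268 at 22 h after JA, against 767, 1062 and 850.4 at 22 h after OPDA. The JA and OPDA arrays of PAP20 did not overlap at either time, and the difference at 2 h was 0.73 (limma adjusted p = 0.083). WRKY42 had 12.8, 4.1 and 29.6 at 22 h after JA, against 71, 37.2 and 54.9 at 22 h after OPDA and 127, 98.2 and 75.6 in untreated stamens. These are dim signals, and the OPDA arrays also lay below the untreated arrays. AT5G14940 had 956, 988 and 803 at 22 h after OPDA, above all untreated arrays (488, 605 and 704), and 226, 128 and 146 at 22 h after JA. Over all members the median share of the fall at 22 h that had been reached by 8 h was 44.0%, and it was at most 25% in 64 members and at least 75% in 37. These shares describe the members only, since the fall at 22 h that they are measured against was chosen by the rule.

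Further members with a symbol encode regulators, an actin-binding protein and enzymes. PHV (PHAVOLUTA), a homeodomain-leucine zipper factor of upper-side identity in leaves, had 98.7, 83.2 and 96.9 at 22 h after JA, against 248, 184 and 211 at 22 h after OPDA and 472, 315 and 202 in untreated stamens. Its log2 difference at 8 h was -0.62 (limma adjusted p = 0.16). Of the 24 tested transcription factors of the list, 0 were lower at 8 h and 1 higher (WRKY6), with PHV and WRKY42 the only members among them. At an adjusted p under 0.05 in limma, the actin-binding protein gene NET4B was lower at 8 h by a log2 change of -1.45 (adjusted p = 4.1e-05), and the protein kinase gene APK1A by -1.09 (adjusted p = 0.0023). RING1, a ubiquitin ligase of the RING type, had a difference of -0.53 at 8 h (limma adjusted p = 0.15) and PME61, a pectin methylesterase, one of -0.54 (limma adjusted p = 0.073). CCL, named for its likeness to CCR, was lower at 8 h, with a log2 change of -1.19 (limma adjusted p = 0.0063) that was not called without replicate 3 of JA at 0.5 h. Its signals at 22 h after OPDA were 842, 776 and 837, against 519, 359.6 and 792 in untreated stamens, and the groups overlapped.

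Among hydrolases, BGLU41, a beta-glucosidase, had 171, 97.7 and 59.6 at 8 h after JA, against 274 and 249 at 0.5 h, a log2 change of -1.24 (limma adjusted p = 0.014). SCPL34, a serine carboxypeptidase-like protein, had 375, 219 and 288 at 8 h after JA, against 601 and 573 at 0.5 h, a log2 change of -0.99 (limma adjusted p = 0.019). The arrays of the 2 times did not overlap for either gene, but both calls were lost when either array of JA at 0.5 h was left out. Of the 25 tested glycoside hydrolases of the list, 3 were lower at 8 h (ATA27, BGLU41 and GH9B18) and 4 higher (EXGT-A3, GH9B17, GH9B8 and GH9C2). Of the 7 tested peptidases, 1 was lower (SCPL34) and 1 higher (SBT4.13). The lists of cytochrome P450, flavonoid synthesis and calcium-binding genes had 2 tested genes each and no call, the tapetum list had 1 (ATA27, lower), and the lists of caleosins and oleosins and of lipid transfer proteins had 0. All lists were matched by gene symbol or synonym and not by product. A gene carried here under its locus name, members included, may therefore belong to a list without being counted.

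**Figure D4:**
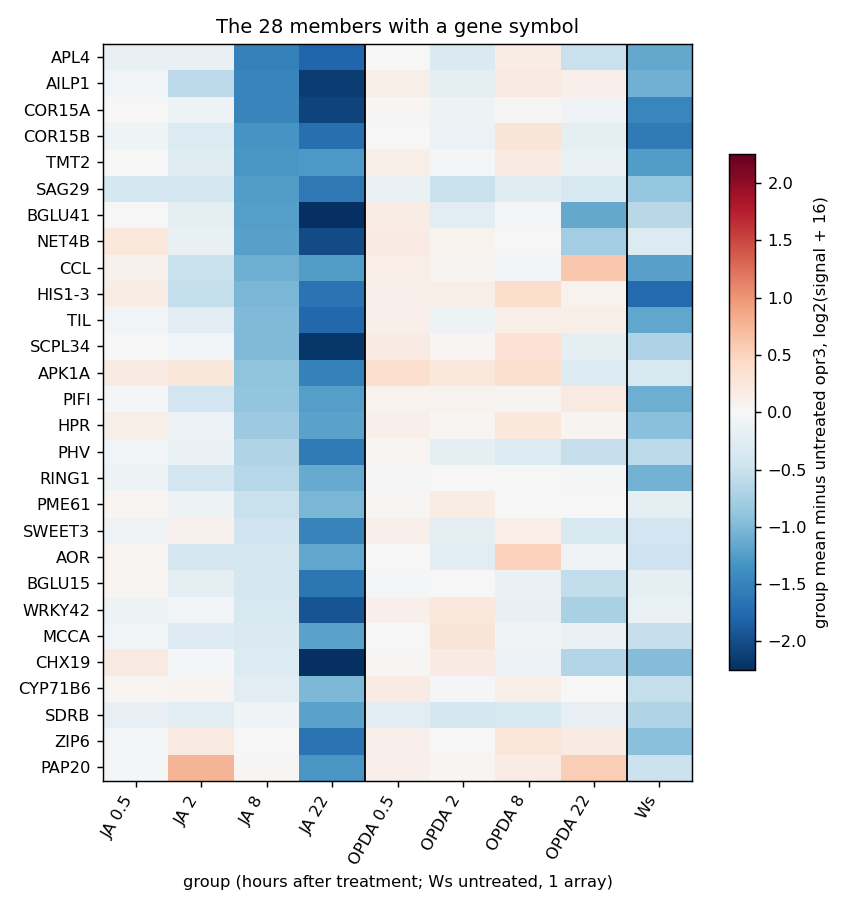
Group mean minus the untreated opr3 mean on log2(signal + 16) for the 28 members with a gene symbol (rows, ordered by the level at 8 h after JA), in columns for 4 times after JA, 4 times after OPDA and the single Ws array. Blue is lower than untreated; rows at the top, such as APL4, AILP1 and COR15A, are blue at 8 h after JA and in Ws, and rows such as ZIP6 and PAP20 are blue at 22 h after JA but not at 8 h.

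The name of the set, with levels kept after OPDA, did not hold for every member. At 22 h after OPDA, 35 members (13.6%) were themselves at least 2-fold lower than in untreated stamens, as were 1.66% of tested probe sets. Another 46 lay between -1 and -0.5, 159 (61.9%) lay between -0.5 and 0.5, and 17 lay above 0.5. The median over all members was -0.19, with 165 below 0. These classes were made from the values at 22 h, and the other measures are given for them as descriptions. The 35 became 43 without replicate 1 of OPDA at 22 h, 27 without replicate 2 and 30 without replicate 3, alternatives chosen after seeing the data. Since the gap to OPDA was fixed at 1 or more, a class lower after OPDA had to be lower after JA at 22 h too. The median difference between 8 h and 0.5 h after JA in the 35 was -1.52, against -0.78, -0.61 and -0.59 in the others, with 20 of the 35 lower by limma, against 24 of 46, 67 of 159 and 6 of 17. Their median difference between Ws and the 0.5 h groups (Ws minus *opr3*) was -0.46, against -0.67, -0.76 and -1.04 in the others. In Ws, 5 of the 35 were at least 2-fold lower, as were 7 of 46, 46 of 159 and 9 of 17 in the other classes.

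**Figure D5:**
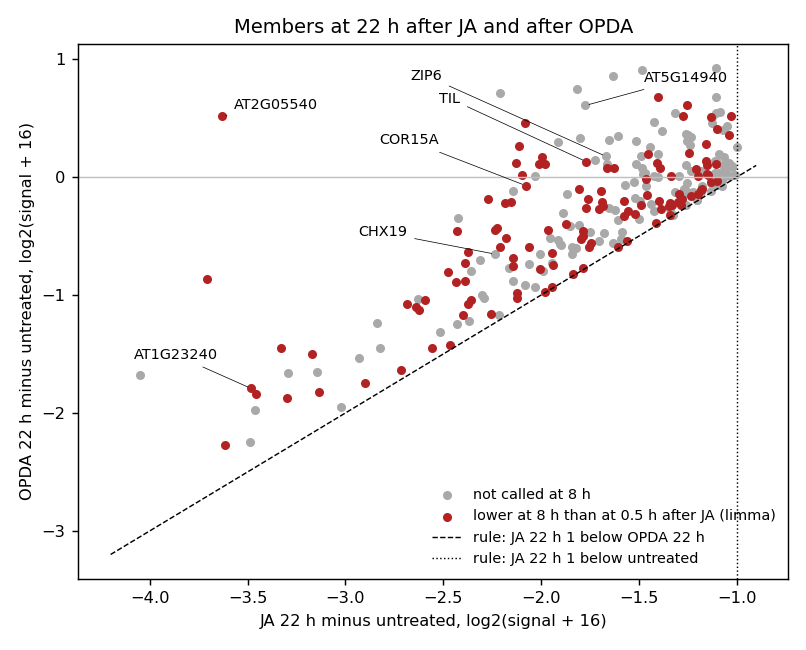
Log2 difference from untreated stamens at 22 h after JA (horizontal) and at 22 h after OPDA (vertical) for the 257 members; red points were lower at 8 h than at 0.5 h after JA by limma, and the dashed and dotted lines are the limits set by the rule. On the vertical axis the members run from -2.27 to 0.92, with COR15A at -0.07 and AT1G23240 at -1.79; 35 lie at or below -1.

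The median untreated signal of these 35 members was 612, against 376, 346 and 551 in the other classes, and several of them were bright in Ws. AT1G23240 had 376, 86.8 and 379 at 22 h after JA, against 1228, 674 and 608 at 22 h after OPDA and 2978, 3733 and 1965 in untreated stamens. The 3 groups did not overlap, and Ws, at 2353, lay within the untreated range. At 8 h after JA it had 1530.3, 372 and 593, against 2241 and 3188 at 0.5 h, a log2 change of -1.91 (95% interval -3.00 to -0.82, limma adjusted p = 0.025). That call was lost without either array of JA at 0.5 h and without replicate 2 or 3 of JA at 8 h. AT5G61605 had the same order, with 189.6, 37.4 and 161 at 22 h after JA, against 601, 277 and 297 at 22 h after OPDA, 1586, 1626 and 965 in untreated stamens and 1192 in Ws. AT4G04460 was brighter still, with 1159.8, 321 and 1017 at 22 h after JA, against 2293, 2136 and 1429.7 at 22 h after OPDA, 6356, 5989.8 and 3787 in untreated stamens and 5139.5 in Ws. Both compounds lay below untreated stamens in these loci and the JA arrays lay below the OPDA arrays. The tapetum marker ATA27 was also low at 22 h after both compounds and high in Ws, with the values given above, and the part of the tapetum in these members was not tested. Whether loci of this class are themselves tapetum genes was not examined, since markers were found by symbol. Unlike them, AT1G11210 and AT1G68500 were low in Ws, at 31.3 and 98.5. At 22 h after OPDA AT1G68500 had 141.7, 99.1 and 104.6, against 298.2, 326.8 and 216.6 in untreated stamens, and these groups did not overlap. AT1G11210 had 94.2, 11.2 and 78.6, against 110.2, 117.7 and 142.0, and its place in the class rests on 1 array: the log2 difference of -1.08 was -0.44 without replicate 2 of OPDA at 22 h. The loci AT2G37750, AT1G28375, AT1G30350, AT3G57810 and AT1G75920 belong to the same class and were lower at 8 h than at 0.5 h after JA, with log2 changes of -1.73, -1.97, -1.45, -1.47 and -1.60. Each of these 5 calls was lost without replicate 3 of JA at 0.5 h.

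Some members lie close together in the genome. Of the 119 members paired with 1 gene, 14 had another member within 5 genes in the RefSeq annotation of TAIR10.1, in 8 pairs. No such count was made for other sets of genes, so whether 14 is many is not known. AT1G23520, AT1G23570, AT1G23580 and AT1G23590 form one such run and were low after both compounds. At 22 h they averaged 38.3 ± 25.3, 37.5 ± 19.1, 30.6 ± 2.05 and 62 ± 36.1 after JA (SD, n = 3 each), against 159, 116, 87 and 156 after OPDA and 462, 451, 246 and 398 in untreated stamens. At 8 h after JA the first 3 of them were lower than at 0.5 h, with log2 changes of -2.02, -1.82 and -1.55, and AT1G23590 had a difference of -1.34 (limma adjusted p = 0.11). AT1G23240 and AT1G23250, AT1G21670 and AT1G21680, AT4G14900 and AT4G14930, WRKY42 and AT4G04460, and the COR15 pair are the other neighbours. Whether probe sets of neighbouring genes with like sequences read each other's transcripts was not tested.

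At 0.5 h no member and at 2 h 6 members were called different between the compounds, and the count at 2 h depended on the fit. Between JA and OPDA at 0.5 h, 0 of 257 members were called by limma, against 0.0713% of tested probe sets, all higher after JA. At that time 0 members had an unadjusted p under 0.05, against 114 lower and 202 higher of the 14028 tested probe sets. The member median was -0.04, with a range of -0.63 to 0.49. At 2 h, 5 members were lower and 1 higher after JA than after OPDA, against 0.321% and 1.58% of tested probe sets. At an unadjusted p under 0.05, 42 members were lower and 11 higher, against 688 and 727 of the 14028 tested probe sets. The rule had limited JA at 2 h on the higher side only, and 4 probe sets missed that limit alone. The split between lower and higher is therefore not free of the choice. The median was -0.07. The count of 6 became 2 without replicate 1 or without replicate 2 of JA at 2 h, and 11 without replicate 2 of JA at 22 h. It became 20 with scan day as a block, 21 with replicate number as a block and 16 with array weights. Of the 5 lower members, 3 are paired with 1 gene, named here after their values were seen. AT4G28240 had 149, 115 and 156 at 2 h after JA, against 223, 234 and 347 at 2 h after OPDA, a log2 difference of -0.85 (95% interval -1.20 to -0.50, limma adjusted p = 0.0049). AT5G35970 had 145, 165 and 168 at 2 h after JA, against 232, 231 and 269 at 2 h after OPDA, a log2 difference of -0.57 (limma adjusted p = 0.021). AT4G05070 had 139, 135 and 167 at 2 h after JA, against 210.5, 234 and 276 at 2 h after OPDA, a log2 difference of -0.65 (limma adjusted p = 0.029). In all 3 the arrays of the compounds did not overlap, and all 3 were also lower at 8 h than at 0.5 h after JA. Their levels at 22 h after JA lay between 66.9 and 87.5. The other 3 called probe sets, 2 lower and 1 higher after JA, have no gene pairing here.

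Ws stamens, which make their own jasmonate, were low for most members. The single Ws array was set against the mean of the *opr3* groups at 0.5 h, which the rule did not use, and the difference runs Ws minus *opr3*. It was below 0 in 253 members, against 66.6% of tested probe sets, with a median of -0.73 over the members and -0.14 over all tested probe sets. In Ws 67 members were at least 2-fold lower and 0 at least 2-fold higher, against 1.4% and 5.34% of tested probe sets. With a single Ws array there was no test, and strain, developmental stage of the sampled flowers and array cannot be told apart from the mutation. Measured against OPDA at 0.5 h alone, the 117 members lower at 8 h after JA had a median of -0.94 in Ws. That median was -0.65 in the 140 that were not called and -0.14 over all tested probe sets. In Ws, 52 of the 117 and 24 of the 140 were at least 2-fold lower. The 117 also had the deeper fall at 22 h after JA, with a median of -1.79 from untreated stamens against -1.48, so the 2 sets differ in more than timing. Among the named members lower in Ws were AT2G05540 (a difference of -2.88), HIS1-3 (-1.89), AT1G11210 (-1.58), COR15B (-1.53) and COR15A (-1.48). In this comparison WRKY42 (-0.15), BGLU15 (-0.21) and AT4G04460 (-0.07) were close to the *opr3* level.

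Outside the rule, 3 genes had group means that followed the members' mean profile most closely over the 10 groups. AT5G61670 had Pearson's r of 0.996, the phospholipid-synthesis gene AAPT2 had 0.989 and AT5G18310 had 0.988, as a description over group means that share arrays and scaling. AT5G61670 averaged 80.2 at 22 h after JA, against 172 at 22 h after OPDA and 192 in untreated stamens. Its gap between the compounds was -0.99, just short of the rule, and those of AAPT2 and AT5G18310 were -0.83 and -0.995. For AAPT2 the difference between JA at 22 h and untreated stamens was -0.95.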

How the data were processed

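The values are MAS5 signal intensities per probe set on a linear scale, deposited by the authors after global scaling of each array to a target of 125, per the labels and the submitters' processing notes; the software version, background and detection calls are not given in the sources used here. Of 27 arrays, replicates 1 and 2 of JA at 0.5 h held identical values and were counted as 1 sample, so 26 were used and 25 *opr3* arrays in 9 groups were fitted, with Ws outside the fit. The median signal of an array lay between 47.5 and 56.9. The number of arrays limits the precision, and the median 95% interval reached 0.37 to 0.42 to either side. Such scaling makes all differences relative to the bulk of an array's signals.

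Signals were taken as log2(signal + 16), so changes of dim probe sets are understated. Group means were estimated with limma 3.58.1 under R 4.3.3 (eBayes with an intensity trend, 16 residual degrees of freedom) over the 14028 probe sets that reached a signal of 50 on 2 or more arrays. P-values are two-sided and adjusted by Benjamini-Hochberg over all 14028 within a comparison, with a call at an adjusted p under 0.05. The script was also tested on simulated data. Alternatives covered pseudocount, filter, scaling, blocks, array weights and each array left out. Probe sets were named from the platform table and RefSeq (TAIR10.1), where 13513 of 22810 have 1 gene, 503 several and 8794 none.

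The members and lists were chosen with earlier results of these data known. Genes named follow a rule on the largest falls, gaps, changes at 8 h and differences in Ws, the members nearest each limit, list members and the closest profiles. The further members with a symbol, neighbours, and those called at 2 h were added after their values were seen. Sequences and promoter motifs were not analysed here.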

Additional observations from a re-analysis of the deposited data

Results flagged for a closer look

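For 14 named members the change from 0.5 to 8 h differed between the compounds by limma. The log2 change after JA minus that after OPDA was -3.05 for AT2G05540 (adjusted p = 0.014), -2.93 for AT1G11210 (adjusted p = 0.0022), -1.93 for AT1G68500 (adjusted p = 0.00018) and -1.58 for AT1G80130 (adjusted p = 0.0017). It was -1.54 for COR15B (adjusted p = 0.020), -1.50 for AILP1 (adjusted p = 0.0062), -1.50 for COR15A (adjusted p = 0.021) and -1.47 for HIS1-3 (adjusted p = 0.0059). The value was -1.41 for TMT2 (adjusted p = 0.0017), -1.53 for APL4 (adjusted p = 0.035), -1.28 for NET4B (adjusted p = 0.018), -1.07 for HPR (adjusted p = 0.029), -1.52 for AT4G05070 (adjusted p = 0.0012) and -0.93 for AT5G35970 (adjusted p = 0.018). In each of the 14 the change after JA was negative and lay between -2.82 and -0.91, and the change after OPDA lay between -0.30 and 0.39. The calls of AT1G11210, AT1G68500, AT1G80130, AT4G05070, AILP1 and TMT2 held without each array in turn. Those of AT2G05540, COR15A, COR15B, APL4, NET4B, HPR and AT5G35970 were lost without at least 2 of the single arrays, and that of HIS1-3 without replicate 1 of OPDA at 8 h. The rule had limited the members at 8 h on the higher side only.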

How the results depend on the processing

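The counts of 0 for JA over OPDA at 0.5 h and for OPDA at 8 h over 0.5 h held under every alternative run. The 117 members lower at 8 h after JA became 74 when the compared groups were fitted alone and 75 when a 2-fold change was also required, and lay between 68 and 132 with each array left out in turn. The 6 called for JA over OPDA at 2 h became 3 with a pseudocount of 1, 20 with scan day as a block, 16 with array weights and 1 when a 2-fold change was required, and lay between 2 and 11 with an array left out. The 257 members became 129 with a pseudocount of 64, of which 127 were among them, and lay between 185 and 318 with an array left out. The 67 at least 2-fold lower in Ws became 28 with a pseudocount of 64 and lay between 59 and 77. The 35 at least 2-fold lower at 22 h after OPDA lay between 27 and 43 with each of those OPDA arrays left out. The 47 of the difference between the courses lay between 18 and 55. The cause of these movements was not tested, beyond the fewer arrays and the stricter limits. Direction was followed for the named members only, and no change called at 8 h or for the difference of the courses was reversed in them. Over the named members, 5089 results stayed on their side of the threshold, 113 lost and 64 gained a call.

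With the replicate number as a block, 136 members were called at 8 h after JA, 21 at 2 h (16 lower, 5 higher) and 56 for the difference of the courses, or 81 with the duplicated array under its other number. The numbers are not stated to pair samples: 77 of 93 pairs of arrays with the same number had deviations correlated above 0.1 (median 0.28, lowest -0.18), against a median of -0.17 between different numbers. A median 95% interval of 0.37 to 0.42 on the log2 scale limits what 2 or 3 arrays can resolve.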
